A study of Mus musculus with 16 samples.

Results

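The presynaptic vesicle release genes are 8 genes that neurons use to dock, prime and fuse transmitter-filled vesicles at the nerve terminal: Snap25, Syt1, Syp, Vamp2, Syn1, Syn2, Cplx1 and Cplx2. They were chosen by name as 8 of the 30389 genes in the count tables, and all 8 had UMIs in every table. UMIs are unique molecular identifiers, which count each captured transcript once. Levels are given as counts per 1000000 UMIs (CPM), taken over the summed cells of a class in a library, where each library was taken as 1 mouse. Because the libraries are enriched for transcript 3′ ends and count 1 tag per molecule, CPM was compared between genes without a length term.

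The study profiled the whole neocortex of 17-month-old mice of the THY-Tau22 line and of their wild-type (WT) littermates, males and females, by Drop-seq, a droplet method for single cells, to ask how late tau pathology changes gene activity and whether sex matters. THY-Tau22 mice express human 4-repeat tau carrying the G272V and P301S mutations under the neuronal Thy1.2 promoter, and the line was kept by mating heterozygous males to C57Bl6/J females, so that the controls are littermates without the transgene. No group received a treatment, and the tissue was dissociated to single cells. The labels give 4 libraries of each genotype in males and, in females, 3 of WT and 5 of THY-Tau22 mice. One male table of each genotype (replicate 3 of WT, replicate 4 of THY-Tau22) held the same cells, with 2952 of 3000 cell barcodes in common where no other pair of tables had more than 12, and both were left out, so that 3 libraries of each genotype remained in males. One animal number stands in a pair of titles, that of THY-Tau22 female replicate 1 and that of WT male replicate 1, whose tables had 5 barcodes in common; they were kept as labelled. Replicate numbers follow accession order and only name a library.

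Vesicle fusion is driven by a bundle of SNARE proteins. Vamp2 (synaptobrevin) on the vesicle pairs with Snap25 and a syntaxin on the plasma membrane, Syt1 (synaptotagmin) senses the calcium that triggers fusion, and the complexins Cplx1 and Cplx2 clamp and then promote the assembled bundle. The synapsins Syn1 and Syn2 tether vesicles in the reserve pool, and Syp (synaptophysin) is an abundant protein of the vesicle membrane.

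On the GRCm38 mouse assembly (GENCODE vM21), to which the mm10 build named in the labels corresponds, the genes lie on 7 chromosomes. Syt1 is by far the longest of the 8, at chr10:108497650-109010982 on the minus strand, and Vamp2 the shortest, at chr11:69088490-69092384 on the plus strand. Both synapsin genes hold a tissue inhibitor of metalloproteinases on the opposite strand: Timp1 lies at chrX:20870166-20874735 inside Syn1, and Timp4 at chr6:115241892-115252205 inside Syn2. The strand setting of the authors' counting is not given in the sources used here, and the levels of both Timp genes are therefore given beside the synapsins.

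Promoter windows, from 250 bases before to 50 bases after the annotated start site, were matched in RefSeq (GRCm38.p6) for 6 of the 8 genes, with 8 windows in all because Syt1 and Syn2 have 2 each. The 2 windows shown are those of the synapsin pair, because Syn1 alone held 2 of the motifs searched and Syn2 is its paralog, with capitals marking an RE1 half-site (TTCAGCACC, the left part of the element bound by the neuronal gene repressor REST) and a cyclic AMP response element (TGACGTCA). Both strands were searched, and the motifs did not overlap.
Syn1, chrX:20920869-20921168, minus strand: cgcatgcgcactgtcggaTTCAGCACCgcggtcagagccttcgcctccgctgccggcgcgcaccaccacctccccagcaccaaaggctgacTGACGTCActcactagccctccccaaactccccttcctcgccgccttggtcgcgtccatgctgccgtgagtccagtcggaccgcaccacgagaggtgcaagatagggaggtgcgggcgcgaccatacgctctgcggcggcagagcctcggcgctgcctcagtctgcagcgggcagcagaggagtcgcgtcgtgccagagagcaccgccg
Syn2, chr6:115134652-115134951, plus strand: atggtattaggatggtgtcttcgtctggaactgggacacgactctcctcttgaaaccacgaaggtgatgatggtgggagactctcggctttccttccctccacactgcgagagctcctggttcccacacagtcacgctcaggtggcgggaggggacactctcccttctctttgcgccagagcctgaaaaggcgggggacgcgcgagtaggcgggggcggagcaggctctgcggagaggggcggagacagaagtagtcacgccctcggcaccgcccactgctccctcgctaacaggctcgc
The Syn1 window held 1 match to each motif, starting 232 and 159 bases before the start site, and the other 7 windows held neither. Of the 32851 promoter windows in the table, 122 (0.371%) held the half-site and 588 (1.79%) the response element. The GC box GGGCGG was found in 4 of the 8 windows, among them 3 matches in the Syn2 window shown, against 35.7% of all windows.

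The 14 libraries held 24578 cells with 200 to 7000 detected genes, of which 1208 were neuron-like, 25 to 201 per library and 1247317 UMIs in all. Tables held 1041675 to 2237505 UMIs, and the 16 of them 48000 barcodes, 19470 with under 200 genes. Cells were clustered without the 8 genes and without 57 other release genes, so that these did not decide which cells were neuron-like, although the genes that did are co-expressed with them. The 12 neuron markers, from which the class was named, summed to 25132 CPM in neuron-like cells and to 191 CPM in microglia-like cells. Because they gave the name, this sum is no independent check of the label. Neuron-like cells also held other classes' RNA, with the 10 oligodendrocyte markers summing to 753 to 19543 CPM and the 10 astrocyte markers to 1495 to 3529 CPM per library. Their part in the results was not tested.

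In neuron-like cells the pooled levels of the 8 genes differed among themselves by a factor of 33.5. The CPM values that follow are means over libraries. Syt1 was the most abundant, at 2711 ± 710.4 CPM (SD, n = 14 libraries), followed by Snap25 at 1623 ± 525 CPM. Cplx2 followed at 662 ± 233 CPM. Syn2 at 357 ± 87.3 CPM and Syp at 332 ± 133 CPM were neighbours whose levels overlapped. Vamp2 stood at 167 ± 96.2 CPM, Cplx1 at 121 ± 87.0 CPM and Syn1 at 92.8 ± 76.6 CPM, and these 3 overlapped as well. Syt1 and Snap25 together made up 72.5% of the 7287 UMIs of the 8 genes. Each paralog pair was uneven, with Cplx2 and Syn2 above their partners Cplx1 and Syn1.

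The counts behind the low genes are small. Syt1 rested on 3319 UMIs, which gives a 95% exact Poisson interval of 2571 to 2753 CPM for the pooled level of 2661, whereas Syn1 rested on 99 UMIs, with an interval of 64.5 to 96.6 CPM around 79.4. These intervals cover counting error only. THY-Tau22 female replicate 4 had no Syn1 UMI among 25576, and the other 13 libraries had 2 to 19. Timp1 had 0 UMIs in neuron-like cells, which allows up to 2.41 CPM at a limit of 3 counts, and Timp4 had 7 UMIs in all.

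At the level of single cells, 70.0% of neuron-like cells had a Syt1 UMI (95% exact binomial interval 67.3 to 72.5%) and 56.6% a Snap25 UMI. At the lower end 7.62% had a Cplx1 UMI and 6.46% a Syn1 UMI. Of the 1208 neuron-like cells, 152 had none of the 8 genes, 309 had 2 and 6 had all 8. Some UMI of the 8 genes was seen in 87.4% of neuron-like cells, at a median of 716 UMIs per cell. In microglia-like cells the share was 5.73%, at a median of 501 UMIs. After thinning each cell to 400 UMIs, which left 1070 and 4841 cells, the shares were 77.1% and 3.93%.

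**Figure D1:**
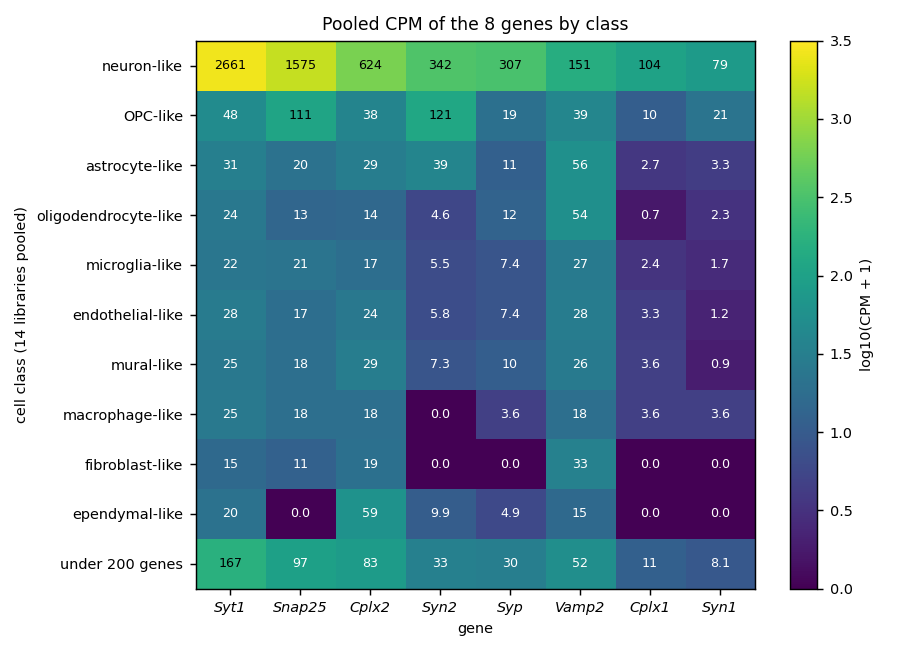
Pooled CPM of each gene (columns, in order of neuronal level) in each cell class (rows) over 14 libraries, with colour on a log10(CPM + 1) scale and the CPM printed in each cell. The top row is the brightest for every gene, from 2661 for Syt1 to 79.4 for Syn1. Among the other named classes, OPC-like cells stand out for Snap25 (111) and Syn2 (121). The row of barcodes with under 200 genes is near them for Snap25 (97.0) and lower for Syn2.

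Outside neurons the 8 genes were low but not equally so. Their summed pooled level was 5842 CPM in neuron-like cells, 105 CPM in microglia-like cells, 126 CPM in oligodendrocyte-like cells, 192 CPM in astrocyte-like cells and 407 CPM in OPC-like cells (oligodendrocyte precursors). Barcodes with under 200 genes stood at 481 CPM. The classes were made by clustering, so the ratios between them are descriptions without a test. Syt1 had the steepest neuron to microglia ratio, 119, and Snap25 followed with 75.3. Vamp2 had the shallowest, 5.60. In all 14 libraries 7 of the 8 genes were higher in neuron-like than in microglia-like cells, and Syn1 was in 13.

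The make-up of these UMIs also differed between classes. Of the 8 genes' UMIs, Syt1 took 45.5% in neuron-like cells (95% exact binomial interval 44.4 to 46.7%) and 34.7% in the barcodes with under 200 genes. It took 21.4% in microglia-like, 19.1% in oligodendrocyte-like, 16.3% in astrocyte-like and 11.7% in OPC-like cells. Vamp2 took 2.58% in neuron-like cells and 43.3% in oligodendrocyte-like cells, 29.3% in astrocyte-like cells and 25.7% in microglia-like cells. Syn2 took 29.8% in OPC-like cells and 20.1% in astrocyte-like cells, against 5.85% in neuron-like cells.

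**Figure D2:**
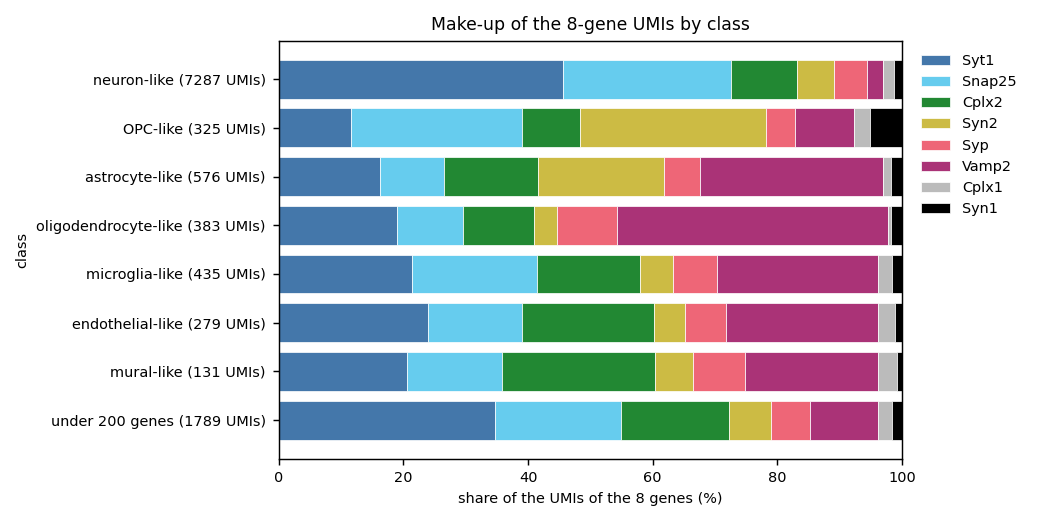
Share of the summed UMIs of the 8 genes (x axis, percent) that each gene contributed in 8 classes (bars, with the number of UMIs behind each). Syt1 fills 45.5% of the neuron-like bar and 11.7% of the OPC-like bar, and Vamp2 fills 43.3% of the oligodendrocyte-like bar.

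OPC-like cells, 1110 in all, carried the most of these transcripts among glia. Snap25, the plasma membrane SNARE, stood at 117 ± 52.6 CPM (SD, n = 14) and ranged from 52.5 to 239 CPM. It was above the microglia-like level in 14 of 14 libraries. Syn2, a synapsin, stood at 131 ± 47.3 CPM, from 47.6 to 202 CPM, and was likewise above in 14 of 14. Syn1 stood at 30.2 ± 27.9 CPM on 17 UMIs and was above in 11 of 14. Syt1 reached 43.5 ± 23.3 CPM, so that the calcium sensor, first in neuron-like cells, ranked below both Snap25 and Syn2 in OPC-like cells. The 12 neuron markers summed to 1320.1 CPM in OPC-like cells, with a range of 908 to 1811 CPM over libraries, against 190.1 CPM in oligodendrocyte-like cells, and none was at 0. Their part in the Snap25 and Syn2 levels was not tested. Barcodes with under 200 genes stood at 97.0 CPM for Snap25, within its OPC-like range over libraries. For Syt1 they stood at 167 CPM, above its OPC-like level, and for Syn2 they stood below it. The part of such background in the OPC-like values was not tested either. Some UMI of the 8 genes was seen in 23.2% of OPC-like cells, or 15.1% at 400 UMIs per cell.

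In astrocyte-like cells Syn2 stood at 38.3 ± 13.0 CPM against 5.47 ± 4.17 CPM in microglia-like cells, and it was higher in 14 of 14 libraries. Cplx2, at 28.4 ± 9.43 against 17.2 ± 10.5 CPM, was higher in 13 of 14. Both Cplx2 levels were below the 83.1 CPM of barcodes with under 200 genes. Timp4, on the opposite strand inside Syn2, stood at 163 ± 68.9 CPM in astrocyte-like cells, 72.4 ± 43.3 CPM in OPC-like cells and 2.32 ± 3.60 CPM in microglia-like cells. Timp4 was thus high in both glial classes in which Syn2 was high, and near 0 in neuron-like cells, where Syn2 was highest. Whether reads from Timp4 were counted for Syn2 was not tested. Timp1, inside Syn1, had 15 UMIs in fibroblast-like cells and none in OPC-like, oligodendrocyte-like or microglia-like cells. Whether reads from Timp1 were counted for Syn1 was not tested.

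Vamp2 was the least neuronal of the 8 against microglia-like, astrocyte-like and oligodendrocyte-like cells. Against OPC-like cells, the neuron-like ratios of Syn2 (2.81) and Syn1 (3.73) were below that of Vamp2 (3.89). Vamp2 stood at 58.2 ± 36.6 CPM in astrocyte-like cells and 52.6 ± 33.3 CPM in oligodendrocyte-like cells, above the microglia-like level of 26.7 ± 9.91 CPM in 13 and 12 of 14 libraries. The pooled neuron-like level was 2.67 times the astrocyte-like and 2.77 times the oligodendrocyte-like one. Cplx2 reached 59.3 CPM in ependymal-like cells, on 12 UMIs from 126 cells. Barcodes with under 200 genes stood higher for Cplx2, at 83.1 CPM. For Vamp2 they stood at 52.15 CPM, near its astrocyte-like and oligodendrocyte-like levels. The part of such background in the glial values was not tested. The other glial values of the complexins and of Syp were low, and Cplx1 had 2 UMIs in all oligodendrocyte-like cells.

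**Figure D3:**
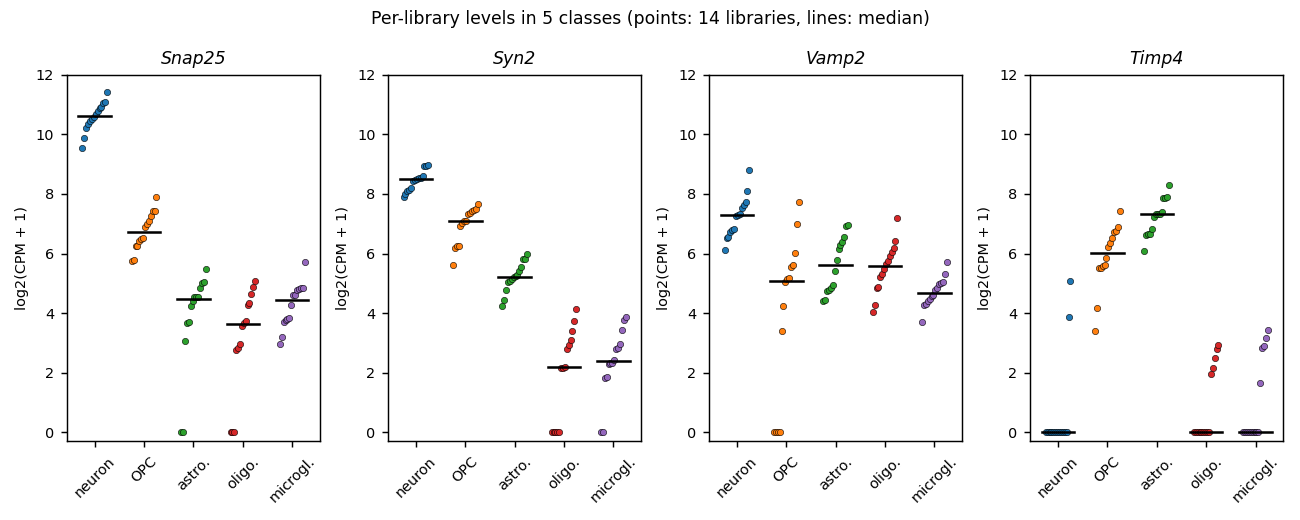
Levels of Snap25, Syn2, Vamp2 and the Syn2-overlapping gene Timp4 in 14 libraries (points) on a log2(CPM + 1) axis for 5 classes, with the median as a line. Snap25 and Syn2 in OPC-like cells lie between the neuron-like and microglia-like points, and Timp4 is high only in the OPC-like and astrocyte-like columns of these 5.

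Neuron-like cells were not uniform. At a finer clustering, 103 cells with Penk and Pde10a, genes known from striatal projection neurons, among their leading genes separated from 1103 cells led by Meg3 and Snhg11. Snap25 stood at 685 CPM in the smaller set and 1649 CPM in the larger one, and Syt1 at 1641 against 2747 CPM. Cplx2 ran the other way, at 1038 against 589 CPM. These sets were made from the same cells and carry no test. The 208 neuron-like cells with a UMI of Gad1 or Gad2, the enzymes of GABA synthesis, had 1393 ± 757 CPM of Snap25 and 180.2 ± 205 CPM of Cplx1 (SD, n = 14 libraries), and the 1000 cells without one had 1685 ± 491 and 95.0 ± 75.9 CPM, so the libraries of both sets overlapped for both genes. Every library supplied cells to both sets, and differences within a library are not given here. The median depth was 645 UMIs per cell with a Gad UMI and 746 without.

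Among 1619 genes with at least 100 CPM in neuron-like cells, the ones whose levels over the 10 named classes followed the summed 8 genes most closely were R3hdm1 (Pearson r = 0.990), Meg3 (0.984), Cpne6 (0.973), Camk4 (0.963) and A830039N20Rik (0.960). All 5 had OPC-like cells as the highest class after neuron-like cells. Of the 8 genes themselves, Syt1 (0.959) and Cplx2 (0.955) followed the sum most closely and Cplx1 (0.829) least. The limit of 100 CPM kept only genes expressed in the class where the 8 genes are highest. Meg3 is also among the markers that named that class, and each of the 8 is part of the sum. High coefficients are thus partly built in. The 10 points share libraries and depth, and the coefficients are descriptions.

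The comparison of genotypes asks whether the neurons of transgenic mice carry other amounts of release machinery. UMIs were summed per library and tested with edgeR's quasi-likelihood test over 2165 genes, with Benjamini-Hochberg adjustment, and calls needed an adjusted p under 0.05 together with a log2 fold change of 0.5 or more in either direction. None of the 8 was called in males, in females, in the mean of both sexes or in the interaction of sex and genotype. No gene was called in any of the 4 contrasts (0% of genes tested), with 154, 65, 112 and 118 genes at an unadjusted p under 0.05 (7.11%, 3%, 5.17% and 5.45%) and 0 calls by DESeq2, which had 113, 54, 71 and 101 genes at that p. All 8 genes passed the filter on low counts. In males, 6 of the 8 fitted log2 fold changes were above 0, with a median of 0.50 against 0.04 over all genes, of which 53.4% were above 0. Without THY-Tau22 male replicate 3, 3 of the 8 were above 0, with a median of -0.11 against a median near 0 and 49.3% above 0 for all genes. In females 5 of the 8 were above 0, with a median of 0.09 against a median near 0 for all genes and 49.7% above 0.

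**Figure D4:**
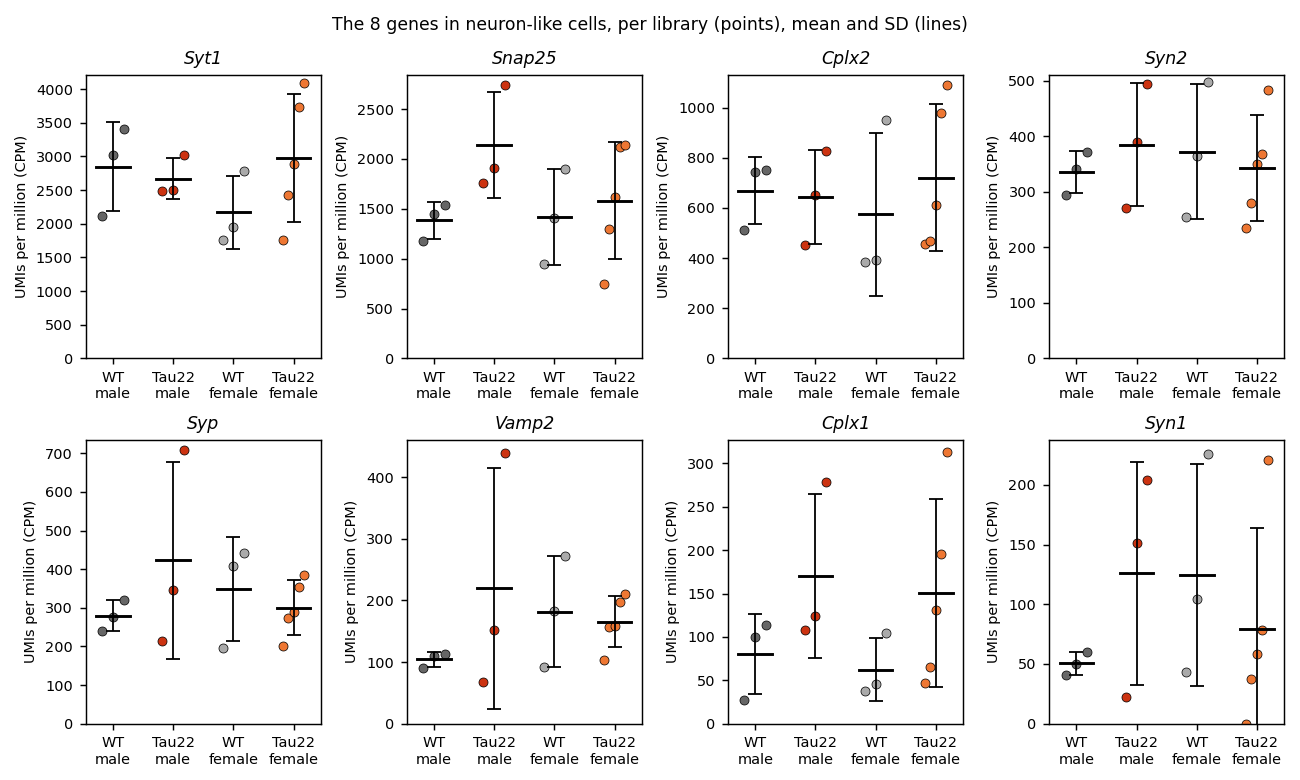
CPM of each gene in neuron-like cells of every library (points) for the 4 groups, with means and SDs as lines; y axes start at 0 and differ between panels. In males Snap25 is the gene whose groups do not overlap, and 1 THY-Tau22 male library is highest in its group for all 8 genes, reaching 708 for Syp and 439.7 for Vamp2.

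Snap25 was at 1178, 1443 and 1537 CPM in WT males and at 1760, 1907 and 2746 CPM in THY-Tau22 males. Every THY-Tau22 male thus stood above every WT male, a separation that 8.68% of the genes tested showed in the same direction. The log2 fold change was 0.51 ± 0.35 (SE, edgeR adjusted p = 0.761). In females Snap25 was at 942, 1402 and 1901 CPM in WT and at 743, 1294, 1618, 2115 and 2139 CPM in THY-Tau22 libraries, and the groups overlapped fully (log2 fold change 0.16 ± 0.32, edgeR adjusted p = 0.999). The difference between the sexes in the log2 fold change was 0.35 ± 0.47 (edgeR adjusted p = 0.933).

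Cplx1, the less abundant complexin here, had the smallest unadjusted p of the 8. WT males were at 27.4, 100.2 and 113 CPM and THY-Tau22 males at 108, 124 and 279 CPM. WT females were at 37.9, 45.2 and 104 CPM and THY-Tau22 females at 46.6, 65.0, 131, 195 and 313 CPM. The groups overlapped in both sexes, on 1 to 26 UMIs per library. The log2 fold change averaged over the sexes was 1.09 ± 0.41 (SE), with an unadjusted p of 0.0115 and an edgeR adjusted p of 0.858, and it was 1.12 ± 0.55 in males and 1.07 ± 0.61 in females.

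Vamp2, the vesicle SNARE, was at 90.2, 109.6 and 113 CPM in WT males and at 67.7, 152 and 439.7 CPM in THY-Tau22 males. The THY-Tau22 male values lay both below and above those of WT. The log2 fold change in males was 0.95 ± 0.49 (edgeR adjusted p = 0.690), and without THY-Tau22 male replicate 3 it fell below 0, to -0.13. In females it was 0.02 ± 0.47 (edgeR adjusted p = 0.999).

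Syt1, the calcium sensor, was at 2116, 3023 and 3406 CPM in WT males and at 2492, 2494 and 3024 CPM in THY-Tau22 males. WT females were at 1764, 1955 and 2786 CPM, and THY-Tau22 females at 1762, 2424, 2887, 3731 and 4092 CPM. The male groups overlapped throughout, and the highest female values were those of 3 THY-Tau22 libraries. Its log2 fold changes were -0.18 ± 0.34 in males and 0.36 ± 0.31 in females (edgeR adjusted p = 0.926 and 0.999).

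Of the remaining 4, Cplx2 and Syn2 differed little between the male groups, with log2 fold changes of -0.16 ± 0.36 and 0.08 ± 0.34. Syn1 had the widest error in males, 1.15 ± 0.72, on WT values of 41.1 to 60.1 CPM and THY-Tau22 values of 22.6 to 204 CPM, and it was 0.47 without THY-Tau22 male replicate 3 and 1.62 without replicate 2. Syp was at 239.7 to 321 CPM in WT and 214 to 708 CPM in THY-Tau22 males (log2 fold change 0.49 ± 0.37), and without THY-Tau22 male replicate 3 the difference was -0.10. In females the 4 log2 fold changes were between -0.14 (Syp) and 0.39 (Cplx2), with SEs of 0.33 to 0.71.

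**Figure D5:**
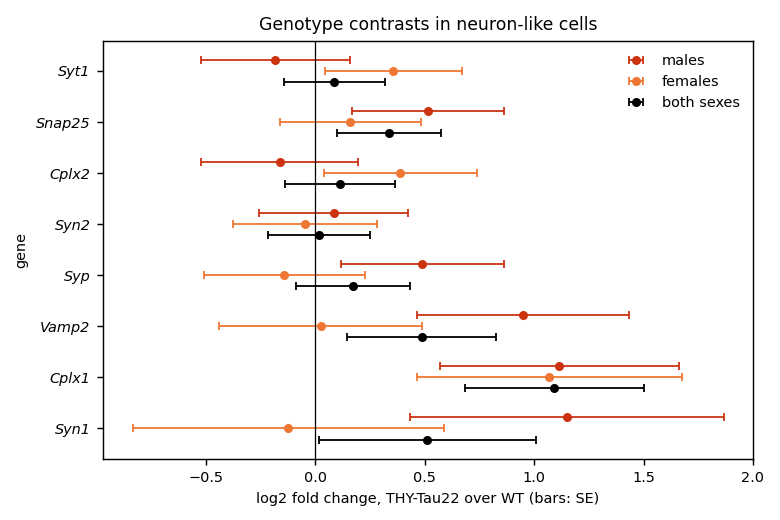
Fitted log2 fold changes of THY-Tau22 over WT in neuron-like cells (points) with SEs (bars) for males, females and their mean; the vertical line marks no difference. The male and female values of Cplx1 (1.12 and 1.07) lie close together, whereas Syt1 lies below 0 in males (-0.18) and above it in females (0.36), with wide bars throughout.

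Other measures moved with the male groups. Mitochondrial ribosomal RNA made up 13.0 ± 3.87% of the UMIs of neuron-like cells in THY-Tau22 males, against 23.5 ± 5.49% in the WT males, without overlap (exact two-sided permutation p = 0.10, the smallest that 3 against 3 allows), and 17.5 ± 6.36% and 17.1 ± 10.8% in females (exact permutation p = 0.929). With those transcripts left out of the totals, Snap25 was still higher in every THY-Tau22 male (2112 to 3015 CPM) than in any WT male (1671 to 1975 CPM), as for 5.36% of the genes tested. Vamp2 and Syn1 over all kept cells and Vamp2 in glia-like cells, described below, did overlap once those transcripts were left out. The 9 endothelial markers in these cells summed to 169 to 354 CPM in the THY-Tau22 male group and to 425 to 718 CPM in the WT male group, and the 10 microglial markers to 672 to 767 and 781 to 1260.2 CPM. Other marker sums overlapped, at 1495 to 2209 and 1541 to 2771 CPM for astrocytes and 147 to 247 and 180 to 315 CPM for OPCs. Those of oligodendrocytes were 3411 to 15278 and 2066 to 7644 CPM. Of single genes tested in these cells, 5.5% were lower in THY-Tau22 males without overlap. The part of these marker transcripts in the values of the 8 genes was not tested. THY-Tau22 male replicate 3, the library with the highest value of all 8 genes among the THY-Tau22 males, had 45 neuron-like cells at a median of 958 UMIs, and it supplied 46.4% of the 862 cells, over all 16 tables, of an unnamed cluster outside the neuron class.

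Neuron-like cells were 4.16 ± 1.24% of kept cells in THY-Tau22 males, against 5.27 ± 1.13% in the WT males (exact two-sided permutation p = 0.30), and 4.75 ± 1.48% and 4.67 ± 3.34% in females (exact permutation p = 0.964; the smallest possible is 0.0179). A cluster of cycling cells led by Top2a and Mki67, which matched the neuron markers best but weakly, was kept out of the neuron class and held 0.401 to 0.736% of kept cells per group.

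Over all kept cells, fewer neurons and less transcript per neuron cannot be told apart. The 8 genes were tested among 11643, and none was called (0% called, with 15.4%, 1.74%, 4.22% and 12.7% at an unadjusted p under 0.05 in males, females, both sexes and the interaction; DESeq2 called 15 genes in males and 0 in the other contrasts, none of them among the 8). Vamp2 was at 26.2, 32.3 and 32.6 CPM in WT males and at 36.3, 46.1 and 96.0 CPM in THY-Tau22 males. Those groups did not overlap, as for 22.4% of the genes tested in the same direction (log2 fold change 0.77 ± 0.32, unadjusted p = 0.0272, edgeR adjusted p = 0.287). Syn1 did not overlap either, at 3.35 to 7.17 against 7.28 to 18.5 CPM. Mitochondrial ribosomal RNA made up 11.3 to 13.2% of UMIs in THY-Tau22 males and 17.1 to 23.0% in WT males. Without it both genes overlapped, Vamp2 at 32.4 to 42.3 CPM in WT and 40.9 to 108 CPM in THY-Tau22 males and Syn1 at 4.35 to 8.65 and 8.39 to 20.9 CPM, where 16% of genes tested were still higher without overlap.

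In glia-like cells, 5 of the 8 genes passed the filter among 9462 tested, and none of the 5 was called (0.0423% called in males, 0% in females and in both sexes, 0.0317% in the interaction). At an unadjusted p under 0.05 were 17%, 2.21%, 4.33% and 15.7% of genes tested in these contrasts, and 1, 0, 0 and 0 of the 5. Vamp2 was again the one with the smallest unadjusted p. It was at 22.4, 27.3 and 27.7 CPM in WT males and at 30.1, 51.1 and 89.5 CPM in THY-Tau22 males, without overlap, as for 21.4% of genes tested. Mitochondrial ribosomal RNA was 8.60 to 13.2% of UMIs in THY-Tau22 and 16.7 to 22.3% in WT males, and without it Vamp2 overlapped, at 33.6 to 98.0 against 27.6 to 35.1 CPM, where 15.6% of genes tested did not. The log2 fold change was 0.93 ± 0.39 in males (unadjusted p = 0.0226, edgeR adjusted p = 0.228) and -0.02 ± 0.34 in females, and the difference between the sexes was 0.96 ± 0.51 (edgeR adjusted p = 0.356). In females the WT values of 23.8, 42.2 and 80.9 CPM spanned the THY-Tau22 values of 29.6 to 73.8 CPM.

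The wider release machinery was described by a list of 58 genes in 7 groups, of which 57 were in the tables and 46 had their highest class mean in neuron-like cells. The list was picked for known release genes. The share of all genes highest in neuron-like cells is not given here. This count and the group counts below therefore describe the list only. Of the 31 that passed the filter in neuron-like cells, 1 had an unadjusted p under 0.05 in males, 0 in females, 0 in both sexes and 1 in the interaction, and none was called. Over all genes tested, 7.11%, 3%, 5.17% and 5.45% had such a p in these contrasts. The median log2 fold change of the 31 was 0.09 in males and -0.03 in females, beside 0.04 and near 0 over all genes.

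Among SNAREs and their partners, 9 of 11 genes were highest in neuron-like cells. Napb, which helps to recycle used SNARE bundles, was among them, at 573 ± 204 CPM (SD, n = 14). It was thus above Vamp2 in neuron-like cells. Of 10 synaptotagmins and related calcium sensors 8 were highest in neuron-like cells, but the most abundant one there, Syt11 at 726 ± 177 CPM, was higher in oligodendrocyte-like cells (1509.5 CPM). Syt7, a slow calcium sensor, stood at 208 ± 66.4 CPM. The relatives Cplx3 and Syn3 were scarce in neuron-like cells, at 9.89 and 9.83 CPM, and Syn3 was highest in mural-like cells (127 CPM).

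All 8 active zone genes were highest in neuron-like cells, with the scaffolds Pclo at 1200.1 ± 211 CPM and Erc2 at 780.2 ± 158 CPM. Of 13 vesicle membrane genes 12 were, with Rab3c at 424 ± 161 CPM and Sv2a at 363 ± 125 CPM, although Sv2a also stood at 313 CPM in oligodendrocyte-like cells. All 8 genes of vesicle retrieval and presynaptic chaperones were too, among them Synj1 at 265 ± 58.1 CPM. None of the 5 SNAREs of other cells was highest in neuron-like cells; Stx4a was at 136 CPM in oligodendrocyte-like cells and 49.3 CPM in neuron-like cells, and Snap29 at 53.5 CPM in mural-like cells and 23.4 CPM in neuron-like cells.

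The listed gene with an unadjusted p under 0.05 was Rab3a, a small GTPase of the vesicle membrane. It stood at 121 ± 50.5 CPM in WT males, 331 ± 325 CPM in THY-Tau22 males, 212 ± 170 CPM in WT females and 144 ± 44.5 CPM in THY-Tau22 females. The highest library, at 697 CPM, was 1 of the THY-Tau22 males. The male and interaction values of Rab3a lean on it, and no value without it is given here. The log2 fold change was 1.26 ± 0.52 in males (unadjusted p = 0.0195) and -0.38 ± 0.55 in females, and the difference between the sexes was 1.64 ± 0.75 (unadjusted p = 0.0362), neither of which passed the adjustment.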

How the data were processed

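The authors made Drop-seq libraries, per the labels, and the deposited tables hold raw UMI counts per gene and cell barcode, 3000 barcodes a table, with no normalization. The labels' processing notes name the mm10 build; the aligner version, annotation, strand setting and choice of barcodes are not given in the sources used here. Barcodes with 200 to 7000 detected genes were kept. Cells were clustered in Python 3.11.15 with scanpy 1.11.5 and leidenalg 0.10.2, on 2500 variable genes, 19 principal components and 20 neighbours at Leiden resolution 0.5, after leaving out the 8 genes and the release list. A cluster was named "X-like" from fixed markers when at least 3 markers were up and their mean log2 fold was at least 1.5, a threshold set after seeing the clusters; 6 of 17 clusters (1760 cells) stayed unnamed. Names were rebuilt here and may differ from the study's. Scrublet marked 1515 cells (5.31%) as doublets, 102 (8.44%) of them among the neuron-like cells of the 14 libraries; doublets were kept, and removed in an alternative.

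UMIs were summed per library and class, because cells are not replicates, and compared by the quasi-likelihood test of edgeR 4.0.16 (R 4.3.3) with TMM library sizes, filterByExpr and 1 mean per group, with p-values adjusted over all genes tested. DESeq2 1.42.0 was an alternative. The edgeR script was tested on simulated data. Differences in shares of cells were tested by exact permutation, two-sided. P-values measure the spread between libraries. Whether other transcripts share sequence with the 8 genes was not examined.

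The 8 genes, the release list and the markers were chosen with earlier results of these data known. Named genes were the 8, Timp1 and Timp4, the 2 highest in neuron-like cells of each release group, any of the list at an unadjusted p under 0.05, and the 5 most alike over classes; some genes that this rule names are not reported here. The 2 tables that share barcodes entered only the alternatives.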

Additional observations from a re-analysis of the deposited data

Results flagged for a closer look

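Barcodes with under 200 detected genes, which entered no comparison, held 1789 UMIs of the 8 genes among 3720076 in the 14 libraries, or 480.9 CPM, where 3 counts would correspond to 0.806 CPM. This exceeded the summed level of every glial class (105 to 407 CPM). In these barcodes Syt1 took 34.7% and Snap25 20.2% of the 8 genes' UMIs, and Syt1, Snap25, Cplx2 and Vamp2 stood at 167, 97.0, 83.1 and 52.2 CPM. Their mitochondrial ribosomal RNA share was 11.7 to 40.0% per library. Within the only group of 5 libraries, THY-Tau22 females, no library stood apart in any of the 8 genes or in the neuron-like share. This covered 25 sets of values. The smaller groups, among them the THY-Tau22 males with replicate 3, were not examined in this way.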

How the results depend on the processing

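The counts of genes called were the values that moved most. In neuron-like cells, 1 gene was called in both sexes with the 8 genes in the clustering, and 3 in the interaction without the MB22 libraries (WT female replicate 3 and THY-Tau22 female replicate 5, named for that part of their titles); leaving out 1 library gave 0 to 1 in both sexes (1 without WT female replicate 1) and 0 to 4 in the interaction (4 without WT female replicate 3). Over all kept cells, males had 15 calls with DESeq2, 295 without the filter on low counts, 3 with the shared library kept as WT male and 88 without the MB22 libraries, and 0 to 71 over single libraries left out (71 without WT female replicate 3). Without the filter, females had 32, both sexes 48 and the interaction 182; the interaction had 711 without the MB22 libraries and 0 to 1142 over libraries left out (1142 without WT female replicate 3), and both sexes 0 to 1. In glia-like cells, males had 1 with RLE size factors, 47 with DESeq2, 166 without the filter, 11 with the shared library as WT male, 202 without the MB22 libraries, and 0 with all 16 libraries, with the shared library as THY-Tau22 male or with at least 500 genes per cell, and 0 to 224 over libraries left out. The interaction there had 15, 132, 7, 860, 0, 0 and 0 in the same order after RLE, and 0 to 1222. Females had 11 without the filter, 3 without the MB22 libraries and 0 to 5 over libraries left out, and both sexes 10 without the filter. With the MB21 or MB22 tag of the titles as a term, males and the interaction had 15 and 7 calls over all kept cells and 130 and 108 in glia-like cells; without both libraries that share an animal number, the interaction had 1 call over all kept cells, and males and the interaction 0 and 1 in glia-like cells. The cause was not tested.

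Of the 22 fold changes of the 8 genes given in the text, none was called under 652 alternatives, with adjusted p down to 0.0845, and 9 changed sign under at least 1. In neuron-like cells of males, Syn2 was -0.14 without the filter, -0.004 with the shared library as THY-Tau22 male and -0.04 with doublets removed, and -0.11 to 0.21 over libraries left out; Syp was -0.10 to 0.75 and Vamp2 -0.13 to 1.33, lowest without THY-Tau22 male replicate 3. In females, Vamp2 was -0.04 with DESeq2, -0.21 without the MB22 libraries, -0.12 with the tag as a term, -0.05 without the same-numbered animals, -0.03 with doublets removed and -0.30 to 0.27 over libraries left out. Syn1 was 0.01 without the filter, 0.31 at a limit of 5% mitochondrial mRNA and -0.89 to 0.36. Syn2 was 0.08 without the filter, 0.01 with the cycling cluster and -0.16 to 0.10, and Syp -0.39 to 0.05. The interaction of Snap25 was -0.06 without the filter, and Vamp2 in glia-like cells of females was 0.01 without it and -0.34 to 0.48 over libraries left out. Over all 84 fold changes of the 8 genes, 1 of 2384 alternatives gave a call: Syt1 in the interaction over all kept cells without the MB22 libraries, at -1.88. Its edgeR adjusted p was 0.0499, in a setting where 711 of the 11763 genes tested were called. The difference in neuron-like share between female groups was -0.00374 percentage points with doublets removed and -1.13 to 1.99 over libraries left out. Leaving out mitochondrial ribosomal RNA, adding the cycling cluster, the tag as a term and leaving out the same-numbered animals were chosen after seeing the data. No paired analysis was possible because the labels give no replicate numbers that groups share. The few UMIs of Cplx1, Syn1 and Vamp2 per library limit what could be detected.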
